A study of Mus musculus with 63 samples.

Results

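Glo1, Dnahc8, H2-Q2 and H2-Q10 are 4 genes of mouse chromosome 17 that were examined here together because they were high in hearts of the tet-off driver line. They were taken by symbol from the deposited table of read counts, 4 of its 23429 genes and 4 of the 1140 that lie at a single place on chromosome 17 in the deposited gene models. The symbols came from earlier results on these hearts, so the difference between tet-off and nontransgenic hearts is given below as a description, with no test. Their levels were described in every genotype group and age.

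The series profiled polyadenylated RNA of mouse hearts of FVB/N background by single-end sequencing without strand information, in 63 libraries. Whole hearts were labelled at postnatal day 1 (P1), and left ventricles at postnatal day 21 (P21) and 5 weeks, while the extraction protocol speaks of ventricular apexes at all ages. Nontransgenic hearts carried no transgene. Tet-off hearts carried the tet-off driver alone, a transgene whose product switches on a second transgene in the absence of tetracycline. Mfn2wt hearts overexpressed human mitofusin 2, and Mfn2AA hearts overexpressed human mitofusin 2 with the substitutions T111A and S442A. The promoter of the driver, and whether the Mfn2wt line carries it, are not given in the sources used here. P1 had 6 nontransgenic, 4 Mfn2wt, 5 tet-off and 3 Mfn2AA libraries. P21 had 6, 6, 5 and 6 in the same order, and 5 weeks had 4, 4, 3 and 4. The other 7 libraries were nontransgenic hearts of P21 (3 libraries) and 5 weeks (4 libraries) in the preparation of the P1 libraries, of which 6 repeated hearts of the groups above and 1 did not. Levels of genotype groups at different ages come from separate preparations, so only genotypes within an age are set against each other.

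Total counts per library ran from 4557894 to 24339146. Human mitofusin 2, read from the table of FPKM (fragments per kilobase of exon, scaled to library size), was at 336.1 to 8050.9 in Mfn2AA, 264.0 to 1795.9 in Mfn2wt, 3.96 to 361.9 in tet-off and 1.79 to 177 in nontransgenic libraries. The title of each library holds a number that the labels do not explain. At 5 weeks, 5wk_ntg_10287-6 and 5wk_Mfn2AA_10287-8 share such a number, and each stands apart from its group for some of the 4 genes. At P1, P1_tetoff_10587-3 stands apart from the other tet-off libraries. Results that rest on these libraries are given with and without them. Titles mark the libraries of a group as separate hearts, and p-values measure the spread between these libraries. In bulk tissue, fewer cells of a type and less RNA per cell cannot be told apart.

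Glo1 encodes glyoxalase I, the glutathione-dependent enzyme that removes methylglyoxal, a reactive by-product of glycolysis. Dnahc8 encodes a heavy chain of axonemal dynein, the motor of cilia and sperm tails, and is known mainly from testis. H2-Q2 and H2-Q10 belong to the nonclassical class I genes of the major histocompatibility complex, which on mouse chromosome 17 holds many similar genes. H2-Q10 is known as a secreted class I protein made mainly by the liver. In mouse strains this region is inherited as haplotypes that differ in which genes they hold, and the FVB/N strain does not share the haplotype of the C57BL/6J reference genome. Copies of the segment with Glo1 are known to differ in number between laboratory strains. Copy number and sequence variants were not measured in these libraries.

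In the deposited models (build mm10) Glo1 lies on the minus strand at chromosome 17, 30592862 to 30612659, with 6 exons. Dnahc8 starts 14.3 kb beyond it, at 30626936 to 30875264 on the plus strand, with 93 exons. H2-Q2 follows 4.47 Mb further, at 35342333 to 35345722, and H2-Q10 lies 124.4 kb beyond H2-Q2, at 35470089 to 35474563, each on the plus strand with 7 exons. The members are thus a pair of neighbours and a second pair in the histocompatibility complex. No other deposited model overlaps them. Of the 50-base words of the annotated transcript, 46.9% in Glo1 also occur in transcripts of other genes (most in the pseudogene Gm13443), against 3.66% in Dnahc8, 8.74% in H2-Q2 and 11% in H2-Q10. Reads of the histocompatibility genes and of Glo1 may therefore be split between copies, which leaves their levels uncertain. The shares of words do not measure by how much.

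The 250 bases before the RefSeq start of each gene (GRCm38.p6) are shown because the 4 genes moved together in most libraries, and a reader may ask what their promoters share. They are written from 5′ to 3′ on the strand of the gene, with matches to the motifs below in capitals. The windows are chr17:30612660-30612909 (minus strand), chr17:30626686-30626935, chr17:35342057-35342306 and chr17:35469839-35470088.
Glo1: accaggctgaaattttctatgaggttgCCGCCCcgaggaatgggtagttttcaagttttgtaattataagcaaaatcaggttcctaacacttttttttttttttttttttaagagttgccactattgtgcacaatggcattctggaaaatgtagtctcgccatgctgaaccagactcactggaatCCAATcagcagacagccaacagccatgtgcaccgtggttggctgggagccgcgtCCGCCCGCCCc
Dnahc8: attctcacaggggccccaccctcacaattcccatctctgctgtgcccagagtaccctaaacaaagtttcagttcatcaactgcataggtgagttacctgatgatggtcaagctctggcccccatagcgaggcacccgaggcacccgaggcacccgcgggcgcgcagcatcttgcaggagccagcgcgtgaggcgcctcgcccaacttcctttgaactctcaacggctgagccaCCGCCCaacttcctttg
H2-Q2: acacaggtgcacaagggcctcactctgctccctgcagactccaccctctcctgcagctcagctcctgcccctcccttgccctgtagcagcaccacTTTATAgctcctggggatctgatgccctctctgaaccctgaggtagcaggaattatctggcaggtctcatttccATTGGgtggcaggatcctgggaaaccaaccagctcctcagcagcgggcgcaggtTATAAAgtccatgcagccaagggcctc
H2-Q10: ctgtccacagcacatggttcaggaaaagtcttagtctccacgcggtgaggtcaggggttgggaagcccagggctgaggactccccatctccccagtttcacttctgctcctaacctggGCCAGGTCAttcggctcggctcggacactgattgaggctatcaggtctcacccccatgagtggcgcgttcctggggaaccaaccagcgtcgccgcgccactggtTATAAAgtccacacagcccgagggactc

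The motifs were searched on both strands. Glo1 held a CCAAT box (CCAAT) 65 bases before its start and GC boxes (GGGCGG) at 7, 11 and 223 bases, the first pair overlapping, and Dnahc8 a GC box at 17 bases. H2-Q2 held TATA boxes (TATAAA) at 27 and 155 bases and a CCAAT box at 81 bases, and H2-Q10 a TATA box at 28 bases and an antioxidant response element (TGACNNNGC) at 132 bases. Of 32851 promoters of the same length, 12.4% held the TATA box, 33.8% the CCAAT box, 32.7% the GC box and 10.2% the antioxidant response element. The class I enhancer A motif (in 0.0852% of promoters), the interferon-stimulated response element core (2.98%) and the cyclic AMP response element core (TGACGT, 6.47%) matched in 0 of the 4. No motif of the search occurred in all 4 promoters. H2-Q2 and H2-Q10 were 57.5% identical over their aligned windows, against 47.3% to 51.4% for the other 5 pairs.

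Glo1 was the most abundant of the 4 genes. Its mean in nontransgenic hearts was 63.1 ± 2.98 FPKM (SD, n = 6) at P1 and 64.0 ± 5.78 (SD, n = 6) at P21. On the same per-length scale H2-Q2 was at 1.44 and 2.75 FPKM, H2-Q10 at 1.00 and 2.14 and Dnahc8 at 0.107 and 0.0970 in those groups. The classical class I genes H2-K1 and H2-D1, which present peptides on most cells, were at 17.4 and 71.4 FPKM at P1. All levels below are in CPM, counts scaled to library size by TMM, and fold changes are log2. In nontransgenic hearts of P1, H2-Q10 (1473 exon bases) had a mean of 0.147 CPM against 1.00 FPKM. H2-Q2 (1099 exon bases) had 0.268 CPM against 1.44 FPKM. At these lengths FPKM would lie below CPM if both counted the same reads. The rank of these genes by FPKM is therefore uncertain, and the cause was not tested.

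At P1 Glo1 read 61.8, 67.7 and 72.1 CPM (lowest, median and highest) in nontransgenic libraries and 63.9, 71.3, 79.1 and 82.6 in Mfn2wt libraries. Tet-off libraries read 60.8, 139.6, 144.9, 151.9 and 189.1 CPM, and Mfn2AA libraries 136.2, 146.4 and 167.4. All 3 Mfn2AA and 4 of 5 tet-off libraries lay above every nontransgenic and Mfn2wt library, and the remaining tet-off library, P1_tetoff_10587-3, lay below all of them. The order of the means was nontransgenic (67.7 ± 3.81), Mfn2wt (74.2 ± 8.35), tet-off (137.3 ± 47.0) and Mfn2AA (150.0 ± 15.9, SD), and neither nontransgenic and Mfn2wt nor tet-off and Mfn2AA were further apart than the sum of their SDs. The tet-off mean exceeded the nontransgenic one by a log2 fold change of 1.02 ± 0.18 (SE), and by 1.23 ± 0.10 without P1_tetoff_10587-3.

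At P21 nontransgenic libraries held Glo1 at 76.2, 78.1 and 88.5 CPM (lowest, median, highest) and Mfn2wt libraries at 71.6, 84.4 and 90.3. The 5 tet-off libraries read 146.8, 165.4, 250.3, 259.3 and 279.8 CPM. The 6 Mfn2AA libraries read 77.0, 89.6, 147.8, 153.1, 156.5 and 217.9 CPM. The tet-off and Mfn2AA values did not form a single level. Against the nontransgenic median, the tet-off libraries P21_tetoff_10549-2, P21_tetoff_10549-3 and P21_tetoff_10549-4 stood at 3.21, 3.32 and 3.58 times. P21_tetoff_10549-5 and P21_tetoff_10534-3 stood at 2.12 and 1.88 times. Of the Mfn2AA libraries, P21_Mfn2AA_10534-4 stood at 2.79 times, 3 stood at 1.89 to 2.00 times, and P21_Mfn2AA_10534-2 and P21_Mfn2AA_10534-5 at 0.986 and 1.15 times. Tet-off exceeded nontransgenic by 1.47 ± 0.19 (log2, SE), and the order of the means was nontransgenic, Mfn2wt (79.4 ± 4.59 and 81.4 ± 7.64), Mfn2AA (140.3 ± 51.2) and tet-off (220.3 ± 60.0, SD).

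At 5 weeks nontransgenic libraries held Glo1 at 46.3, 62.5, 75.9 and 201.3 CPM, the last in 5wk_ntg_10287-6, and Mfn2wt libraries at 47.5, 55.4, 58.7 and 79.0. Tet-off libraries read 95.2, 146.8 and 158.3 CPM and Mfn2AA libraries 66.8, 80.3, 96.6 and 127.6. The library labelled 5wk_ntg_10287-6 held more Glo1 than any tet-off or Mfn2AA library of its age. With it tet-off exceeded nontransgenic by 0.46 ± 0.38 (log2, SE), and without it by 1.10 ± 0.26. In the order of the means, Mfn2wt (60.2 ± 13.4), Mfn2AA (92.8 ± 26.2), nontransgenic (96.5 ± 70.9) and tet-off (133.4 ± 33.6, SD), no neighbours were further apart than the sum of their SDs.

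**Figure D1:**
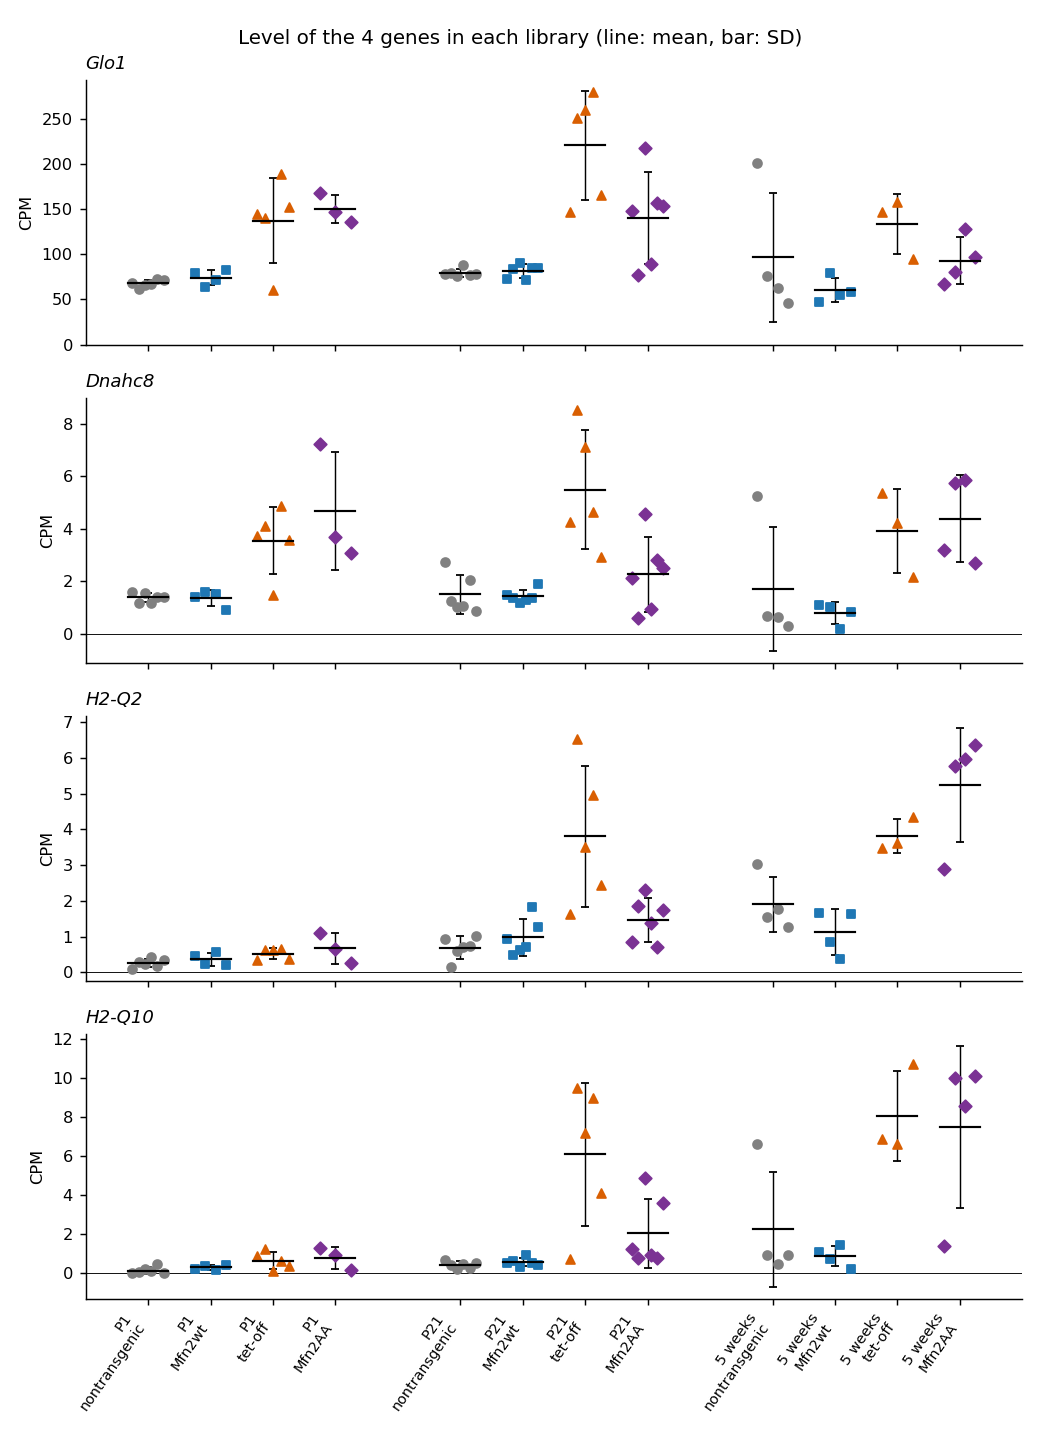
Level of each gene in every library, in CPM on a linear axis, by age and genotype; each point is a library, the line is the group mean and the bar its SD. In all 4 panels most tet-off and Mfn2AA points of P21 lie above the nontransgenic and Mfn2wt points, and at 5 weeks 1 nontransgenic point, at 201.3 CPM of Glo1, lies with or above them.

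Dnahc8 was far lower, with 1 to 152 reads per library, and its libraries fell in nearly the same order. At P1 nontransgenic libraries held 1.19, 1.39 and 1.60 CPM (lowest, median, highest) and Mfn2wt libraries 0.924, 1.40, 1.5 and 1.61. Tet-off libraries read 1.47, 3.59, 3.73, 4.10 and 4.89 CPM and Mfn2AA libraries 3.07, 3.70 and 7.24. The low tet-off value was again that of P1_tetoff_10587-3, and the other 7 tet-off and Mfn2AA values lay above all 10 of the nontransgenic and Mfn2wt values. The tet-off mean exceeded the nontransgenic one by 1.31 ± 0.29 (log2, SE).

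At P21 Dnahc8 read 0.884, 1.15 and 2.75 CPM (lowest, median, highest) in nontransgenic, 1.16, 1.38 and 1.88 in Mfn2wt and 0.617, 2.31 and 4.56 in Mfn2AA libraries. Tet-off libraries read 2.93, 4.25, 4.64, 7.14 and 8.54 CPM. All tet-off libraries lay above all nontransgenic ones, by 1.80 ± 0.37 (log2, SE), while Mfn2AA overlapped every group. The lowest 2 Mfn2AA values belonged to P21_Mfn2AA_10534-2 and P21_Mfn2AA_10534-5, the libraries that were also lowest for Glo1.

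At 5 weeks Dnahc8 read 0.315, 0.650, 0.667 and 5.26 CPM in nontransgenic libraries, the last again in 5wk_ntg_10287-6, and 0.183, 0.819, 1.03 and 1.11 in Mfn2wt libraries. Tet-off libraries read 2.17, 4.21 and 5.35 CPM and Mfn2AA libraries 2.71, 3.21, 5.74 and 5.88. All 7 libraries of the tet-off and Mfn2AA groups lay above all Mfn2wt libraries and above the other 3 nontransgenic ones. Tet-off exceeded nontransgenic by 1.09 ± 0.66 (log2, SE), and by 2.75 ± 0.51 without 5wk_ntg_10287-6.

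H2-Q10 had the widest range of the 4. It was near the limit of detection at P1, with 0 to 23 reads per library: 0, 0.0912 and 0.462 CPM (lowest, median, highest) in nontransgenic libraries and 0.167, 0.234, 0.403 and 0.411 in Mfn2wt libraries. Tet-off libraries read 0.113, 0.368, 0.652, 0.887 and 1.24 CPM and Mfn2AA libraries 0.175, 0.966 and 1.28. The lowest and highest of the tet-off and of the Mfn2AA group were several-fold apart, and 3 of 5 tet-off and 2 of 3 Mfn2AA libraries lay above every nontransgenic library. The tet-off mean exceeded the nontransgenic one by 1.79 ± 0.72 (log2, SE), and by 2.22 ± 0.67 without P1_tetoff_10587-3. Markers of hepatocytes, the main known source of H2-Q10, moved with it in part: their summed level was highest in P1_tetoff_10587-1 (373.4 CPM) and P1_Mfn2AA_10586-3 (111.5 CPM), the libraries with the highest H2-Q10 of their groups. The other P1 tet-off and Mfn2AA libraries summed to 12.3 to 32.5 CPM, Mfn2wt ones to 17.8 to 48.9 and nontransgenic ones to 15.2 to 27.0. The part of liver transcripts in the P1 values of H2-Q10 was not tested.

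At P21 H2-Q10 read 0.203, 0.443 and 0.707 CPM (lowest, median, highest) in nontransgenic and 0.331, 0.547 and 0.924 in Mfn2wt libraries. Tet-off libraries read 0.742, 4.10, 7.21, 8.98 and 9.47 CPM. Mfn2AA libraries read 0.771, 0.777, 0.940, 1.27, 3.60 and 4.90 CPM. The tet-off values did not overlap the nontransgenic ones, although P21_tetoff_10534-3 exceeded the highest of them only by 0.742 against 0.707. Tet-off exceeded nontransgenic by 3.70 ± 0.58 (log2, SE).

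At 5 weeks H2-Q10 read 0.465, 0.945, 0.964 and 6.62 CPM in nontransgenic libraries and 0.234, 0.747, 1.11 and 1.47 in Mfn2wt libraries. Tet-off libraries read 6.62, 6.86 and 10.7 CPM and Mfn2AA libraries 1.39, 8.55, 10.0 and 10.1. The high nontransgenic value was that of 5wk_ntg_10287-6, and the low Mfn2AA value, within the range of Mfn2wt, that of 5wk_Mfn2AA_10287-8. The tet-off mean exceeded the nontransgenic one by 1.75 ± 0.72 (log2, SE), and by 3.34 ± 0.67 without 5wk_ntg_10287-6.

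H2-Q2, its neighbour, read 0.107, 0.267 and 0.431 CPM at P1 (lowest, median, highest) in nontransgenic libraries, with 1 to 4 reads each. Mfn2wt libraries read 0.205 to 0.584 CPM, tet-off libraries 0.355 to 0.652 and Mfn2AA libraries 0.263 to 1.11, and the gene did not pass the filter on low counts at this age. At P21 tet-off libraries read 1.62, 2.43, 3.50, 4.95 and 6.53 CPM against 0.139, 0.718 and 1.03 (lowest, median, highest) in nontransgenic ones, which they did not overlap. Mfn2wt libraries read 0.484, 0.821 and 1.84 CPM and Mfn2AA libraries 0.706, 1.56 and 2.31, and these overlapped each other. Tet-off exceeded nontransgenic by 2.34 ± 0.40 (log2, SE).

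At 5 weeks H2-Q2 read 1.26, 1.56, 1.77 and 3.02 CPM in nontransgenic, 0.367, 0.840, 1.64 and 1.67 in Mfn2wt, 3.48, 3.61 and 4.35 in tet-off and 2.89, 5.78, 5.96 and 6.36 in Mfn2AA libraries. The highest nontransgenic value was that of 5wk_ntg_10287-6, and it lay below all tet-off values. The tet-off mean exceeded the nontransgenic one by 0.96 ± 0.37 (log2, SE), and by 1.28 ± 0.39 without that library.

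Over the contrast that chose the genes, all 4 had tet-off values above nontransgenic ones without overlap at P21, where 1.39% of tested genes did so. At 5 weeks 1 of 4 did so (H2-Q2), against 3.62% of tested genes, and at P1 0 of the 3 tested members did so, against 1.15%. These counts are a description, since the members were chosen on this contrast. The values that chose them gave fold changes from 0.46 (Glo1 at 5 weeks) to 3.70 (H2-Q10 at P21). With the authors' FPKM in place of counts (limma, pseudocount 1), H2-Q10 gave 0.19, 1.13 and 1.14 at the 3 ages, where counts gave 1.79, 3.70 and 1.75. H2-Q2 gave 1.12 and 0.65 at P21 and 5 weeks, where counts gave 2.34 and 0.96, and Glo1 gave 0.93, 1.43 and 0.70. Dnahc8 did not pass the filter of that fit. The symbols came without a threshold, so no gene just outside one can be given.

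Mfn2AA and Mfn2wt hearts share no library with that contrast, so the 4 genes were tested between them. Most Mfn2AA libraries share a title number with tet-off libraries, and Mfn2wt libraries of P1 and P21 share one with nontransgenic libraries. The comparison was therefore not shown to be independent of the choice. Mfn2AA and Mfn2wt libraries share no title number, so genotype and title number cannot be told apart in this comparison. Some of the 4 were higher in Mfn2AA hearts at each age, and none was lower. At P1 Dnahc8 passed the test of edgeR (quasi-likelihood F test, Benjamini-Hochberg adjustment over all genes), 1 of the 3 members tested, against 0.125% of all genes tested. Its log2 fold change was 1.78 ± 0.34 (SE, adjusted p = 0.0436), with 3 of 3 Mfn2AA libraries above all 4 Mfn2wt libraries. Glo1 was 1.01 ± 0.22 and missed the threshold (adjusted p = 0.0861), although its libraries did not overlap either, which held for 6.97% of all genes in the direction of higher Mfn2AA. H2-Q10 was 1.49 ± 0.68 (adjusted p = 0.457). The Dnahc8 call was lost without any single library except P1_Mfn2AA_10619-1 (lowest 1.28 without P1_Mfn2AA_10586-3, adjusted p = 0.34) and with the 2 groups fitted alone (adjusted p = 0.134), over a range of adjusted p from 0.00215 to 0.34 in 11 alternatives.

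At P21 Glo1 was higher in Mfn2AA hearts by 0.79 ± 0.18 (log2, SE, adjusted p = 0.00506 by edgeR), with 4 of 6 libraries above the highest Mfn2wt library, and kept its call in all 18 alternatives. H2-Q10 was higher by 1.86 ± 0.55 (adjusted p = 0.026), also with 4 of 6 above. So 2 of 4 members were called, against 13.7% of all genes tested. Hepatocyte markers were also higher in these Mfn2AA hearts (3 of 3 tested, with 10 listed). They summed to 53.0 to 140.1 CPM against 30.2 to 51.7 in Mfn2wt hearts, with none of the 10 markers at 0 in either group. Of 9 macrophage markers 6 were higher, with sums of 510.5 to 941.0 CPM against 412.9 to 506.3. The adipocyte markers Cfd, Adipoq, Cidec and Plin1 were higher by 4.54, 4.08, 4.0 and 3.58 (log2, all called), while Fabp4 stood at 0.15 and was not called. Of 6 atrial cardiomyocyte markers 2 were called, Bmp10 at 3.81 and Dkk3 at 2.2. The part of these cell types in the H2-Q10 difference was not tested, and P21_Mfn2AA_10534-5, with the highest hepatocyte sum, held H2-Q10 at 0.940 CPM. The H2-Q10 call was lost without P21_Mfn2AA_10534-4 (1.32, adjusted p = 0.13), P21_Mfn2AA_10534-8 (1.66, 0.0553) or P21_Mfn2wt_10547-9 (1.70, 0.0719) and with limma on log2 FPKM (0.57, 0.0665), over a range of 0.0142 to 0.13 in 18 alternatives. Dnahc8 stood at 0.69 ± 0.37 (adjusted p = 0.213) and H2-Q2 at 0.64 ± 0.38 (adjusted p = 0.267).

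At 5 weeks 3 of 4 members were higher in Mfn2AA hearts, against 38.5% of all genes tested that passed in either direction and 20.3% that rose. H2-Q2 rose by 2.26 ± 0.38 (log2, SE, adjusted p = 0.0003 by edgeR) and Dnahc8 by 2.41 ± 0.70 (adjusted p = 0.0131), each with 4 of 4 Mfn2AA libraries above all Mfn2wt libraries. For 18.2% of all genes the groups were likewise apart with Mfn2AA higher. H2-Q10 rose by 3.21 ± 0.82 (adjusted p = 0.00574), with 3 of 4 above. Glo1 was 0.61 ± 0.36 (adjusted p = 0.206), with 3 of 4 above. Without 5wk_ntg_10287-6 and 5wk_Mfn2AA_10287-8 all 4 members passed, Glo1 at 0.73 (adjusted p = 0.0203, in a range of 0.0203 to 0.424 over 15 alternatives) and H2-Q10 at 3.56 (adjusted p = 1.37e-05). The libraries 5wk_Mfn2wt_15926-4 and 5wk_Mfn2wt_15931-9 had 7396727 and 7590577 total counts, against 16663207 to 23732780 in Mfn2AA. Ribosomal precursor Rn45s took 34.371% and 17.635% of their counts. The lowest Mfn2wt library held 1 read of Dnahc8, and the lowest for H2-Q2 and for H2-Q10 held 2. With any single library left out 3 members were still called.

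Markers of several cell types moved with the 5-week comparison. Of 9 tested macrophage markers 9 were higher in 5-week Mfn2AA than Mfn2wt hearts, and their summed level ran from 791.2 to 2412.7 CPM against 472.2 to 598.6, with none of the 9 at 0. Of 6 fibroblast markers 5 were higher, with sums of 11108.3 to 18219.5 CPM against 1902.4 to 2882.8, as were 3 of 4 tested T cell markers (9.75 to 14 against 3.85 to 4.72 CPM). Of 8 ventricular cardiomyocyte markers 6 were lower, with sums of 50285.7 to 63563.5 CPM against 97714.7 to 115605.0. Hepatocyte markers summed to 47.9 to 191.5 CPM against 34.6 to 67.5, with 1 of 3 tested called, and 5wk_Mfn2AA_10287-8, where H2-Q10 was lowest, held 146.0 CPM. The part of these cell types in the rise of H2-Q2, H2-Q10 and Dnahc8 was not tested. In tet-off hearts of 5 weeks, where H2-Q2 read 3.48 to 4.35 CPM and H2-Q10 6.62 to 10.7 CPM, the macrophage sum was 385.5 to 495.3 CPM against 393.5 to 486.7 in nontransgenic hearts. The fibroblast sum was 1632.1 to 2386.7 against 1701.6 to 2570.5 CPM. The T cell sum was 4.63 to 5.93 against 3.38 to 4.3 CPM, and the B cell sum 2.75 to 4.22 against 1.89 to 2.6. Of the tested T cell and B cell markers, 0 of 4 and 0 of 3 were called. The part of these cells in tet-off hearts was not tested.

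Members were also set against each other in the comparisons that share 1 group with the contrast that chose them. Both share a group with it, so their values are not independent of the choice. Between Mfn2AA and tet-off hearts 0 members passed at any age by edgeR, where 0.00732%, 0.574% and 35.0% of all tested genes passed in order of age. At P21 all 4 were lower in Mfn2AA, with Glo1 at -0.65 ± 0.19 (log2, SE, adjusted p = 0.104), Dnahc8 at -1.27 ± 0.35 (0.0817), H2-Q2 at -1.33 ± 0.35 (0.069) and H2-Q10 at -1.56 ± 0.46 (0.109). All 6 Mfn2AA libraries there share a title number with P21_tetoff_10534-3 alone of the 5 tet-off libraries. This library held human mitofusin 2 at 361.9 FPKM, against 6.36 to 26.0 in the other P21 tet-off libraries. A fit with the title number as a block compares Mfn2AA with this tet-off library only. With that number as a block H2-Q10 turned to 1.45 (adjusted p = 0.76), while Glo1, Dnahc8 and H2-Q2 read -0.07, -0.90 and -0.11, so the direction for H2-Q10 depends on the block. Without the block the unadjusted p at P21 was under 0.05 for all 4, and DESeq2 called 3 of them; at P1 and 5 weeks it was under 0.05 for 0. Without P21_tetoff_10534-3 all 4 passed in edgeR (adjusted p from 0.00767 to 0.0431), and without P21_Mfn2AA_10534-4 all but H2-Q2 passed. At 5 weeks the 95% intervals of the log2 difference ran from -1.27 to 0.23 for Glo1 and from -1.42 to 1.24 for H2-Q10, so equality was not shown.

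Between Mfn2wt and nontransgenic hearts 0 members passed at P1, P21 or 5 weeks by edgeR or DESeq2, against 0.146%, 0.604% and 0.388% of all genes, and 0 had an unadjusted p under 0.05. At P1 Glo1 stood at 0.14 ± 0.19, Dnahc8 at -0.01 ± 0.34 and H2-Q10 at 0.89 ± 0.82 (log2, SE). At P21 the differences ranged from -0.16 ± 0.40 (Dnahc8) to 0.37 ± 0.43 (H2-Q2, log2, SE), and Glo1 was 0.03 ± 0.18 with a 95% interval from -0.33 to 0.39. At 5 weeks Glo1, Dnahc8, H2-Q2 and H2-Q10 were at -0.66, -1.15, -0.84 and -1.55, and without 5wk_ntg_10287-6 Dnahc8 turned to 0.51 and H2-Q10 to 0.04.

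**Figure D2:**
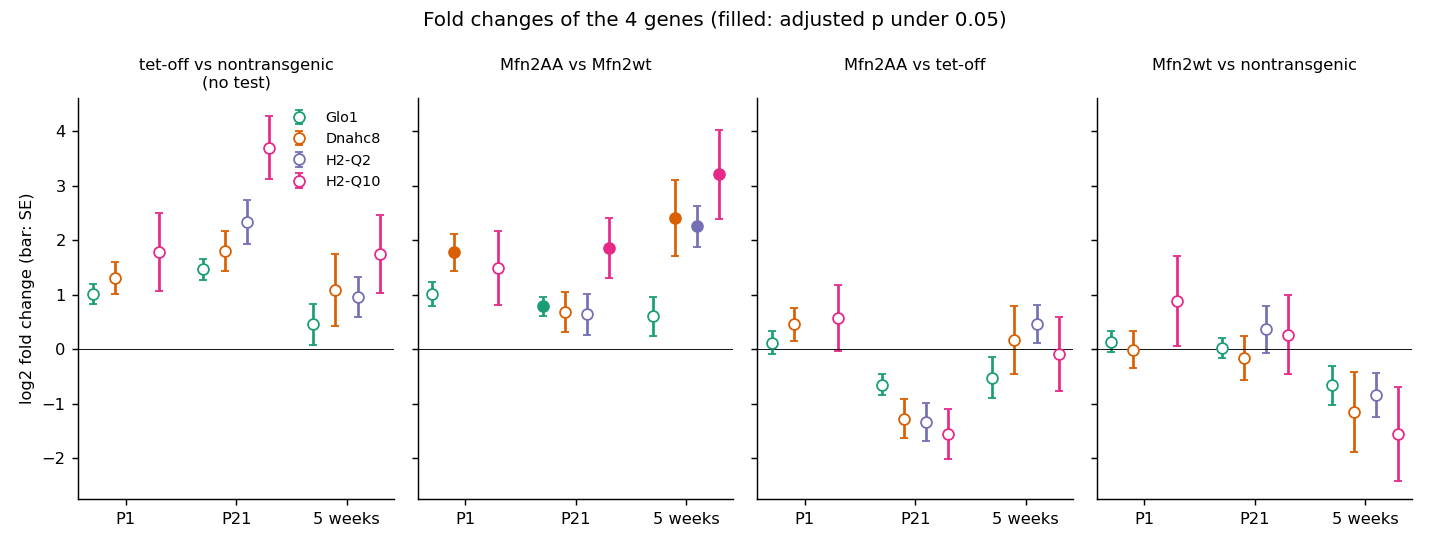
Log2 fold change with its SE (bar) for the 4 genes in 4 comparisons of genotypes at 3 ages; filled points had an adjusted p under 0.05 in edgeR, and tet-off against nontransgenic was not tested. The points of the first 2 panels lie above 0, those of Mfn2AA against tet-off at P21 lie below 0, and those of Mfn2wt against nontransgenic run from 0.89 (H2-Q10 at P1) to -1.55 (H2-Q10 at 5 weeks, where 1 nontransgenic library was high).

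The difference between Mfn2AA and Mfn2wt was compared between ages by an interaction term. From P21 to 5 weeks it grew for H2-Q2 by 1.61 ± 0.54 (log2, SE, adjusted p = 0.0156 by edgeR), the only member called, against 36% of all genes. The call was lost without P21_Mfn2wt_10583-3 (1.32, adjusted p = 0.0514) or 5wk_Mfn2wt_15930-8 (1.40, 0.0561), in a range of 0.0064 to 0.0561 over 23 alternatives. Dnahc8 stood at 1.68 ± 0.69 (adjusted p = 0.0521), H2-Q10 at 1.33 ± 0.96 and Glo1 at -0.21 ± 0.36. From P1 to P21 0 members were called by edgeR or DESeq2, against 0.308% of all genes, and 0 had an unadjusted p under 0.05. Age and library preparation cannot be told apart in this term where preparation acts differently on the genotypes. From P1 to P21 the same holds for the labelled part of the heart.

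Nontransgenic hearts prepared together allowed a comparison of ages. The labels give whole heart at P1 and left ventricle at P21 and 5 weeks. Age and part of the heart therefore cannot be told apart between P1 and P21. Glo1 read 86.4, 89.4 and 89.4 CPM in the 3 P21 libraries of the P1 preparation, above all 6 P1 libraries (61.8 to 72.1), and rose by 0.37 ± 0.07 (log2, SE, adjusted p = 0.000108 by edgeR). It read 76.1 to 82.5 CPM in the 4 libraries of 5 weeks, a log2 difference from P21 of -0.15 ± 0.07 (adjusted p = 0.151). Dnahc8 was 0.37 ± 0.33 from P1 to P21 (adjusted p = 0.349) and fell by 1.26 ± 0.42 from P21 to 5 weeks (adjusted p = 0.0378). That call rests on the repeat library of P21_ntg_10547-1, which read 3.21 CPM against 0.776 and 1.29 in the others; without it the difference was -0.48 (adjusted p = 0.466). So 1 of the 2 members tested passed at each step, against 57.6% and 22.4% of all genes. H2-Q2 and H2-Q10 did not pass the filter in this fit, with 1 to 11 and 0 to 11 reads per library.

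Where 6 hearts had a library in each preparation, the level of Glo1 differed between them by -0.03 to 0.79 (log2, median 0.18), and that of Dnahc8 by -0.38 to 0.85 (median 0.22). H2-Q2 differed by -1.56 to 1.79 and H2-Q10 by -0.98 to 0.48. These ranges cover the preparation of the same RNA and not the spread between animals.

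The members did not always move as a block. Of the 26 tet-off and Mfn2AA libraries, 16 lay above every nontransgenic library of their age (5wk_ntg_10287-6 left out) for all 4 genes, 5 for 3 of them, 4 for 2 and 1 for 1. This is a description, as the tet-off libraries chose the members. With 5wk_ntg_10287-6 kept, 0 of 3 tet-off and 0 of 4 Mfn2AA libraries of 5 weeks lay above for Glo1. With it left out, Mfn2wt libraries of 5 weeks lay above in 1 of 4 for Glo1 and 3 of 4 for Dnahc8. For H2-Q2 and H2-Q10 these were 0 of 4 and 2 of 4. Of 4 Mfn2wt libraries of P1, 2 lay above for Glo1, 1 for Dnahc8, 2 for H2-Q2 and 0 for H2-Q10. Of 6 at P21, 1, 0, 2 and 1 lay above in the same order. The same count was not made for all genes. At P21 P21_tetoff_10534-3, P21_Mfn2AA_10534-1 and P21_Mfn2AA_10534-6 held Glo1 at 1.88 to 2.00 times the nontransgenic median while H2-Q10 was at 0.742, 1.27 and 0.777 CPM. P21_Mfn2AA_10534-8 and P21_tetoff_10549-5 held Glo1 at 1.96 and 2.12 times with H2-Q10 at 3.60 and 4.10 CPM. Libraries with nearly the same Glo1 thus differed in H2-Q10, and H2-T23, a class Ib gene beyond H2-Q10 at 36029977 to 36032701, differed with it: 5.26, 6.36 and 5.23 CPM in the former 3 and 13.0 and 14.7 in the latter 2.

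At 5 weeks 5wk_Mfn2AA_10287-8 held Dnahc8 at 3.21 CPM, above every Mfn2wt library, but H2-Q10 at 1.39 CPM and Glo1 at 66.8 CPM. In 5wk_tetoff_10289-3 Glo1 was the lowest of its group and H2-Q10, at 10.7 CPM, the highest. Among the P1 libraries P1_tetoff_10619-3 and P1_Mfn2AA_10619-1 held Glo1 at 151.9 and 136.2 CPM with H2-Q10 at 0.368 and 0.175 CPM, within the nontransgenic range.

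**Figure D3:**
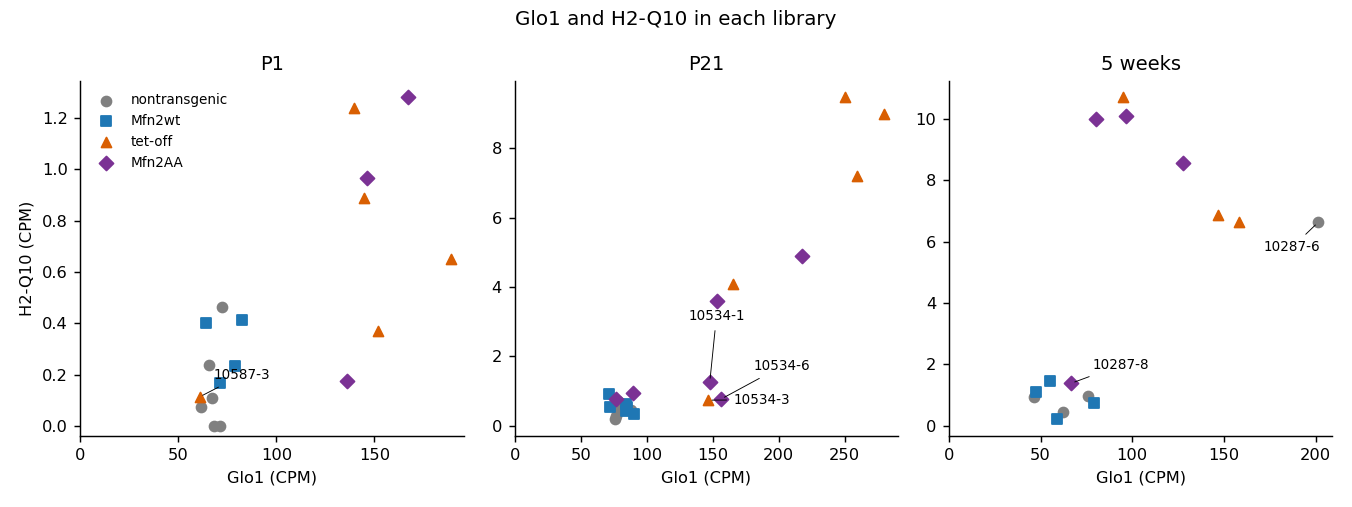
Level of H2-Q10 against Glo1 in each library, in CPM, at P1, P21 and 5 weeks; colour and shape mark the genotype and labels give the number of single libraries. Low libraries of both genes lie at the lower left, P21_Mfn2AA_10534-1, P21_tetoff_10534-3 and P21_Mfn2AA_10534-6 hold raised Glo1 with H2-Q10 at 0.742 to 1.27 CPM, and 5wk_ntg_10287-6 lies with the tet-off and Mfn2AA libraries.

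Likeness was measured over the 56 libraries of the genotype groups as the Pearson coefficient of log2 CPM after the mean of each age was subtracted, among 12972 genes tested at all ages. It is a description, as libraries share preparation and depth. The coefficients also hold the difference between tet-off and nontransgenic hearts that chose the members, so likeness among the members follows in part from that choice. The genes most like Glo1 were Dnahc8 (0.832), Btbd9 (0.829) and H2-Q10 (0.795), and those most like Dnahc8 were Glo1 (0.832), H2-Q10 (0.763) and Btbd9 (0.741). The genes most like H2-Q10 were H2-T23 (0.879), Hspa1l (0.799) and Glo1 (0.795), and those most like H2-Q2 were H2-T23 (0.804), H2-Q10 (0.758) and Dnahc8 (0.724). Every gene named here lies on chromosome 17, and of the 10 genes most like each member 8 do, the other members among them. Btbd9, a BTB-domain gene, is the tested gene next to Glo1, 16.6 kb away. Hspa1l, a heat shock protein gene known from testis, lies in the histocompatibility complex.

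Endod1, on chromosome 9 (14353990 to 14381242), was the only gene of the table called in the same direction in tet-off against nontransgenic and in Mfn2AA against Mfn2wt at all 3 ages. It read 94.4 to 205.2 CPM in the 8 tet-off and Mfn2AA libraries of P1 against 8.20 to 18.2 in the 10 others, 85.6 to 161.9 against 10.5 to 21.5 at P21, and 26.0 to 102.2 against 6.95 to 11.6 at 5 weeks. Its log2 fold change between tet-off and nontransgenic hearts was 3.14 ± 0.20, 3.20 ± 0.18 and 3.12 ± 0.27 (SE) at P1, P21 and 5 weeks. Its separation by label follows from how it was chosen and is a description. Endod1 was also among the 10 genes most like each member (0.775 for Glo1, 0.700 for H2-Q10, 0.676 for Dnahc8 and 0.627 for H2-Q2). The chromosome 17 genes and Endod1 parted in some libraries. P1_tetoff_10587-3 held Endod1 at 95 CPM, like the other tet-off libraries, with Glo1, Dnahc8 and H2-Q10 at 60.8, 1.47 and 0.113 CPM. P21_Mfn2AA_10534-2 and P21_Mfn2AA_10534-5 held it at 85.6 and 151.1 CPM with Glo1 at 77.0 and 89.6 CPM. In the opposite direction, 5wk_ntg_10287-6 held Endod1 at 11.6 CPM and human mitofusin 2 at 4.65 FPKM, both in the range of nontransgenic libraries, with all 4 chromosome 17 genes above those of the other nontransgenic libraries.

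**Figure D4:**
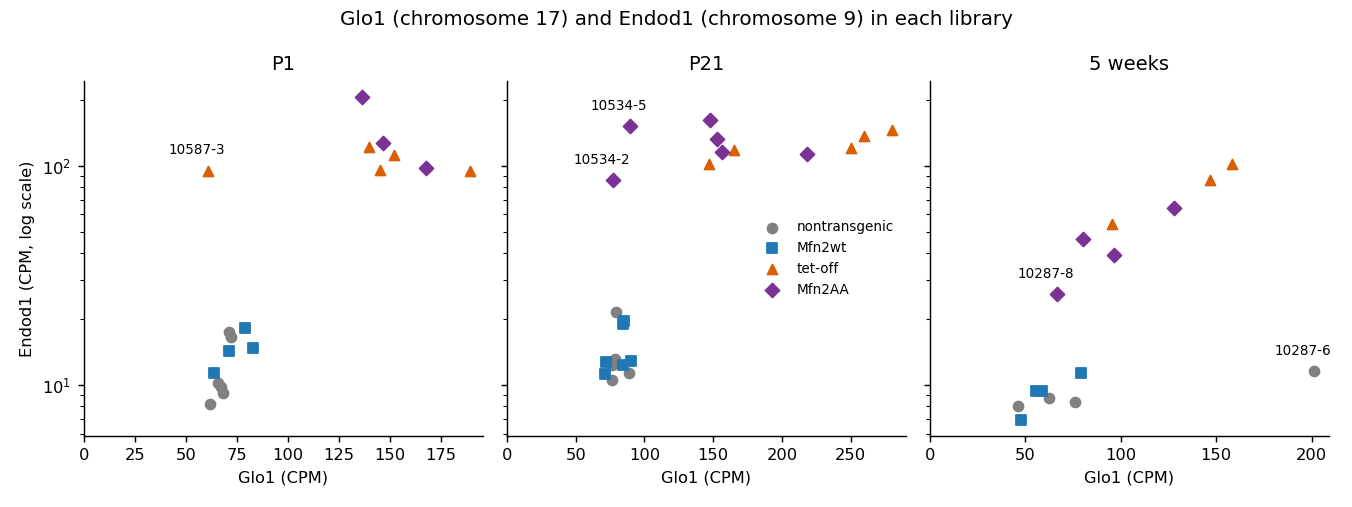
Level of Endod1 (chromosome 9, log axis) against Glo1 (chromosome 17, linear axis) in each library, in CPM, by age and genotype. Endod1, chosen for this, separates the tet-off and Mfn2AA libraries from the others at each age, while P1_tetoff_10587-3, P21_Mfn2AA_10534-2 and P21_Mfn2AA_10534-5 have Glo1 at 60.8, 77.0 and 89.6 CPM and 5wk_ntg_10287-6 has it at 201.3 CPM.

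The neighbourhood was taken as the 339 other genes whose models start between 28 and 38 Mb of chromosome 17. In tet-off against nontransgenic hearts 0 of 185 tested neighbours passed edgeR's test at P1, 16 of 196 at P21 and 0 of 196 at 5 weeks, where all genes gave 1.3%, 1.63% and 0.117%. The P21 share was 8.16%, against 2.14% in the rest of chromosome 17, and chromosome 17 ranked first of 20 chromosomes in its share of called genes there (3.92%). At P1 7 of its 658 tested genes were called (1.06%) and at 5 weeks 0 of 662. This contrast chose the members, and the shares were not tested against each other. The P21 count of 16 fell to 7 without P21_ntg_10547-5 or P21_tetoff_10549-4, to 9 without P21_ntg_10547-3 or P21_tetoff_10549-3 and to 10 without P21_ntg_10547-7 or P21_tetoff_10549-2. When 5wk_ntg_10287-6 and 5wk_Mfn2AA_10287-8 were left out, 4 neighbours passed at 5 weeks. At P1 a wider window of 25 to 41 Mb held 2 called genes.

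Of the 16 neighbours called at P21, 12 were higher in tet-off hearts and 4 lower. Btbd9 was higher by 0.69 ± 0.11 (log2, SE, adjusted p = 0.000709) and Slc37a1, a sugar phosphate exchanger gene, by 0.74 ± 0.17 (0.0241). In the histocompatibility complex H2-T23 was higher by 1.91 ± 0.32 (0.00125), H2-K2 by 1.51 ± 0.38 (0.042), the class II chain H2-Eb1 by 2.36 ± 0.57 (0.0302) and Hspa1l by 0.99 ± 0.19 (0.00671), while H2-T10 was lower by a log2 fold change of -0.91 ± 0.20 (0.0168). Also higher were H2-Ea-ps by 3.03 ± 0.73, Fkbp5 by 2.04 ± 0.32 and Notch4 by 0.85 ± 0.13. Vars2, Brpf3 and Ring1 were higher by 0.47, 0.46 and 0.42. Gm8801, C920025E04Rik and Pim1 were also lower, at -1.71, -1.2 and -0.6. Zfand3 and Abcg1, near the Glo1 pair, stood at 0.04 ± 0.08 and 0.13 ± 0.14. H2-D1 stood at -0.44 ± 0.15 (0.154), Ddx39b at -0.01 ± 0.07 and H2-Q4 at 0.34 ± 0.13 (0.247), the latter between H2-Q2 and H2-Q10. Higher and lower genes thus lay among genes that did not pass.

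In Mfn2AA against Mfn2wt hearts 0 of 185 neighbours passed at P1, 25 of 196 (12.8%) at P21 and 86 of 196 (43.9%) at 5 weeks, where all genes gave 0.125%, 13.7% and 38.5%. Of the called neighbours 20 were higher and 5 lower at P21, and 63 were higher and 23 lower at 5 weeks. Over all genes 1021 were higher and 841 lower at P21, and 2774 and 2483 at 5 weeks, and the difference in direction was not tested. At P21 Btbd9 was higher by 0.33 ± 0.10 (log2, SE, adjusted p = 0.0338), Slc37a1 by 0.92 ± 0.16 (0.00055), Hspa1l by 0.76 ± 0.19 (0.00761) and H2-Eb1 by 2.12 ± 0.55 (0.0117), and H2-T23 stood at 0.74 ± 0.31 (0.113).

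**Figure D5:**
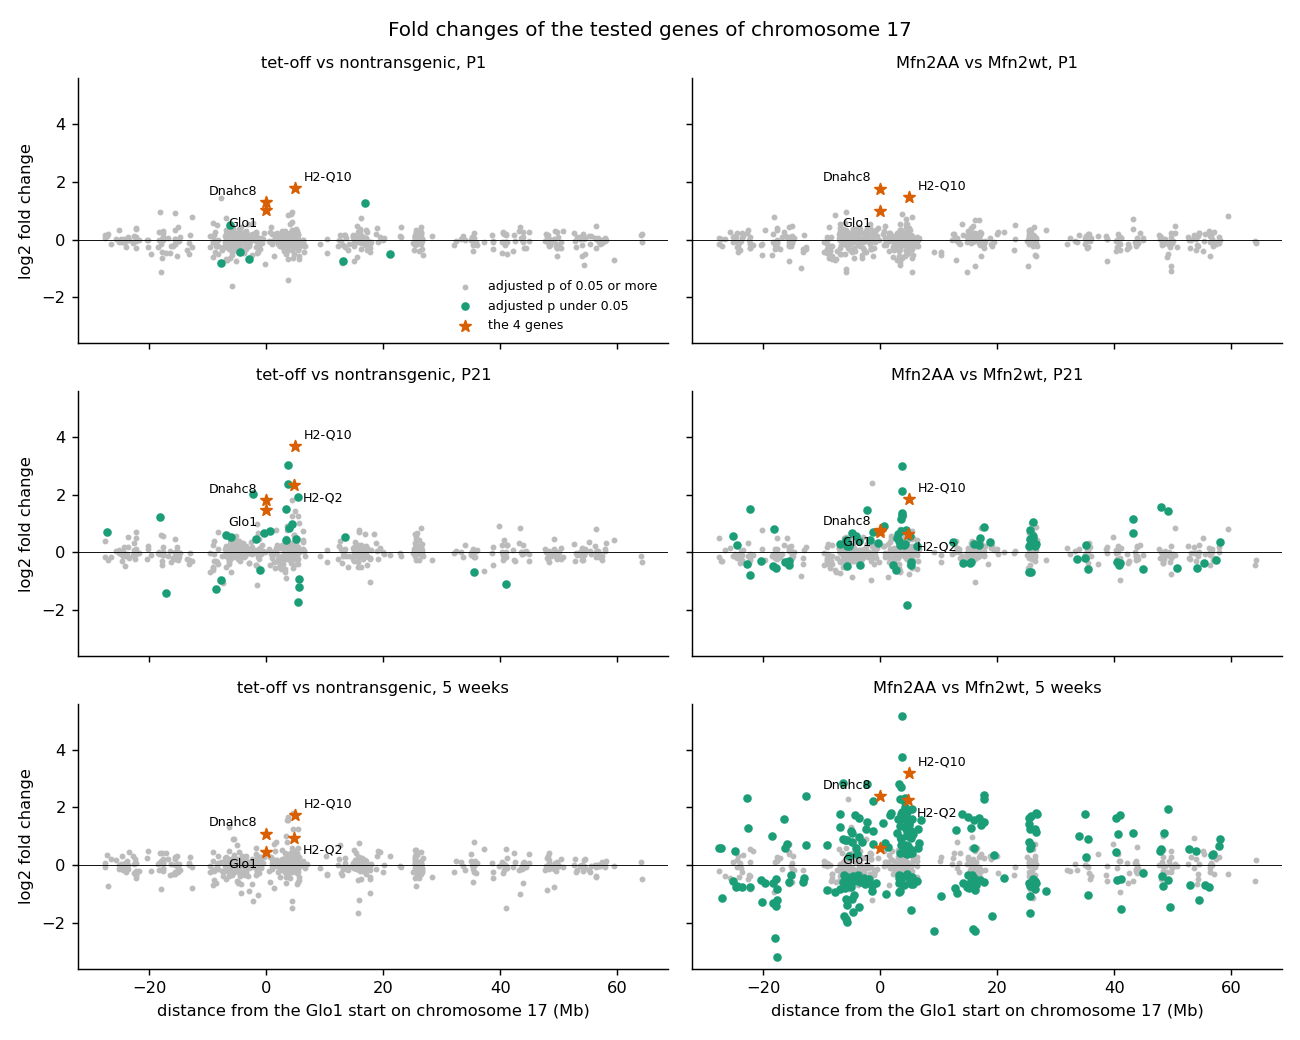
Log2 fold change of each tested gene of chromosome 17 against the distance of its start from that of Glo1 in Mb, for tet-off against nontransgenic (left) and Mfn2AA against Mfn2wt (right) at each age; green points had an adjusted p under 0.05 and stars mark the 4 genes. In the left P21 panel 16 neighbours passed the test within the window around the stars, and in the right panel of 5 weeks called genes lie along the whole chromosome.

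Other genes of the same families were counted against all genes, of which 1.3%, 1.63% and 0.117% passed in tet-off against nontransgenic hearts at P1, P21 and 5 weeks, and 0.125%, 13.7% and 38.5% in Mfn2AA against Mfn2wt hearts. Of 24 other class I heavy chain genes, 10 were tested at P21 and 3 passed in tet-off against nontransgenic hearts (H2-T23 and H2-K2 higher, H2-T10 lower, median log2 fold change 0.25 against 0.00 for all genes), and 0 of 8 and 0 of 11 passed at P1 and 5 weeks. In Mfn2AA against Mfn2wt hearts 0 of 8, 0 of 10 and 8 of 11 passed, the last all higher with a median of 1.00, among them H2-K2 (2.28 ± 0.50), H2-T23 (1.93 ± 0.37) and H2-K1 (1.36 ± 0.15). H2-L, H2-Q6, H2-Q7, H2-Q8, H2-Q9 and H2-T9 of this list had 0 reads in every group and could not be tested. At P21 their mean FPKM in tet-off and nontransgenic hearts was 10.8 and 3.5 for H2-Q8 and 3.28 and 0.225 for H2-Q9. It was 6.32 and 2.55 for H2-T9, 1.8 and 0.766 for H2-L, 0.491 and 1.23 for H2-Q6, and 1.64 and 3.49 for H2-Q7. These FPKM differences were not tested. Class I antigen processing genes had 0 of 14, 0 of 15 and 0 of 15 called in tet-off hearts, and 8 higher and 1 lower of 15 in 5-week Mfn2AA hearts, with Nlrc5, the regulator of class I genes, at 1.62 ± 0.35 and B2m, the class I light chain, at 0.99 ± 0.26. In tet-off hearts of P21 Nlrc5 stood at 1.76 ± 0.56 (log2, SE, adjusted p = 0.134).

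Interferon response genes had 0 of 14, 0 of 17 and 0 of 17 called in tet-off hearts and 4 of 17 higher in 5-week Mfn2AA hearts. Their median log2 fold change in tet-off hearts of P21 was 0.38, and their summed level there ran from 188.6 to 481.8 CPM against 180.9 to 260.0 in nontransgenic hearts. Its part in the levels of H2-Q2 and H2-Q10 was not tested. Class II genes had 1 of 7 called in tet-off hearts at P21 (H2-Eb1), and 7 of 7 and 8 of 8 higher in Mfn2AA hearts at P21 and 5 weeks.

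The other genes of the glyoxalase and glutathione path, such as Hagh, which completes the removal of methylglyoxal, had 0 of 9 called in tet-off hearts at each age. In Mfn2AA hearts 0 of 9, 0 of 9 and 3 of 9 were called, with Hagh at -0.43 ± 0.15 and Ager, a receptor for glycated proteins, at 2.27 ± 0.64 at 5 weeks. Of the 19 other axonemal dynein names 6 were tested at P1, where Dnahc6 was lower in tet-off hearts by a log2 fold change of -0.94 ± 0.17 (adjusted p = 0.00749), and 3 at P21 and 5 weeks, where 0 passed in tet-off and Mfn2AA hearts.

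Markers of cells that make these proteins elsewhere were summed in each library. The 6 spermatid markers summed to 0.272 to 2.05 CPM per library, with Prm2, a protamine, at 0 in every group but 5-week Mfn2AA. The 7 ciliated cell markers of the table summed to at most 4.86 CPM, except in 5-week nontransgenic hearts, where the highest library read 14.8 and its group in the P1 preparation reached 11.7. The 10 hepatocyte markers summed to 36.7 to 63.8 CPM in tet-off hearts of P21, with Apoa2, Fgb and Fga at 0, against 30.3 to 54.7 in nontransgenic ones. At P1, where the sum reached 373.4 CPM in P1_tetoff_10587-1, the 8 tested hepatocyte markers had a median log2 fold change of 3.32 between tet-off and nontransgenic hearts. Alb, the gene of serum albumin, stood at 4.70 ± 1.30 (SE, adjusted p = 0.0702 by edgeR). Of the tested genes of these lists, 0 passed edgeR's test in tet-off against nontransgenic hearts at any age.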

How the data were processed

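RNA of 63 mouse heart libraries was sequenced by the submitters. The deposited counts are raw reads per gene, made with HTSeq from reads aligned to mm10, and Bowtie2, TopHat2 2.0.10 and Cufflinks 2.1 are named in the submitters' processing notes. The FPKM values were computed and deposited by the authors. Gene positions come from the deposited models.

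Libraries were grouped by title. For each age the 4 genotype groups were fitted together with edgeR 4.0.16 (R 4.3.3; TMM, filterByExpr, quasi-likelihood F test, Benjamini-Hochberg over all genes tested, threshold 0.05). Ages were compared in nontransgenic libraries of the P1 preparation, and the change of a genotype difference by an interaction term over 56 libraries. Alternatives were RLE factors, no filter, DESeq2 1.42.0, limma 3.58.1 on log2 FPKM (pseudocount 1 or 0.1, genes whose mean reached 1 in some group), fits of the 2 groups alone, leaving out each library, a block for the title number and other windows. Leaving out 5wk_ntg_10287-6 and 5wk_Mfn2AA_10287-8 together was added after seeing the data. The tests were tested on simulated data. Total counts were 4557894 to 14844064 in the P1 preparation, 5292335 to 24339146 at P21 and 7396727 to 23732780 at 5 weeks, and genes with few reads are the least precise. The transcript of ribosomal precursor Rn45s took 1.98% to 34.371% of counts. Its highest shares were in the 5-week Mfn2wt libraries 5wk_Mfn2wt_15926-4 (34.371%) and 5wk_Mfn2wt_15931-9 (17.635%).

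The members and lists were chosen with earlier results of these data known. Genes named beside them were the nearest tested genes, the genes most like each member and list genes. Genes called in all 6 tet-off and Mfn2AA comparisons were also named. The plan was to name called neighbours where 2 or more ages agreed in sign. This could not occur because P1 and 5 weeks gave 0 calls. The neighbours called at P21 in tet-off against nontransgenic hearts were named instead. Promoters come from RefSeq (GRCm38.p6), where all 4 members matched. Figures were drawn with matplotlib 3.10.9.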

Additional observations from a re-analysis of the deposited data

Results flagged for a closer look

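In groups of 4 to 10 libraries, a gap between the end library and its nearest neighbour beyond Dixon's limit marked 6 values, and chance marks about 1 in 20 groups. P1_tetoff_10587-3 was low for Glo1 (60.8 CPM) and for Dnahc8 (1.47 CPM). 5wk_Mfn2AA_10287-8 was low for H2-Q2 (2.89 CPM) and for H2-Q10 (1.39 CPM). Among nontransgenic P21 libraries, P21_ntg_10547-5 was high for Glo1 (88.5 CPM) and P21_ntg_10547-2 low for H2-Q2 (0.139 CPM). The rule did not mark 5wk_ntg_10287-6, although it held Dnahc8 at 5.26 CPM against 0.315 to 0.667 in the other nontransgenic libraries of 5 weeks. A library that was not marked may thus still stand apart.

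The difference between Mfn2AA and Mfn2wt hearts differed between P21 and 5 weeks for H2-Q2, by 1.61 on the log2 scale (interaction term of edgeR, adjusted p = 0.0156, in a range of 0.0064 to 0.0561 over 23 alternatives).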

How the results depend on the processing

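Glo1 at P21 and H2-Q2, H2-Q10 and Dnahc8 at 5 weeks kept their calls in Mfn2AA against Mfn2wt in every alternative run. Counts of called members moved as follows, and the cause was not tested. In Mfn2AA against Mfn2wt the P1 count of 1 became 2 with no filter and with DESeq2, 0 with limma at either pseudocount, and 0 to 1 with a library left out. The P21 count of 2 became 1 with limma at either pseudocount and 1 to 2 with a library left out. In Mfn2AA against tet-off the P21 count of 0 became 3 with DESeq2 and 0 to 4 with a library left out, and the 5-week count of 0 became 1 with limma at pseudocount 1. In nontransgenic hearts the count of 1 from P1 to P21 became 2 with no filter, 2 with DESeq2 and 3 with limma, and that of 1 from P21 to 5 weeks became 0 with DESeq2 and 0 to 1 with a library left out. The change from P21 to 5 weeks gave 2 with RLE factors, 2 with DESeq2 and 0 to 2 with a library left out. Called neighbours in tet-off against nontransgenic hearts at P1 (0) became 2 in the wider window, 5 with DESeq2, 1 with 2 groups and 0 to 2 with a library left out. At P21 (16) they became 10 in the narrower window, 7 to 19 with a library left out, and at 5 weeks (0) 4 without the pair 5wk_ntg_10287-6 and 5wk_Mfn2AA_10287-8. DESeq2 called 2 neighbours in Mfn2AA against Mfn2wt at P1.

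The signs that turned were those of values that had not passed the test. In Mfn2AA against tet-off, Dnahc8 at P1 read -0.05 to 0.67 with a library left out and Glo1 -0.10 without P1_tetoff_10587-3. At 5 weeks H2-Q10 read 0.27 and 0.30 with limma, 0.26 without 5wk_Mfn2AA_10287-8, 0.17 without 5wk_tetoff_10289-3 and 0.25 without that pair, and Dnahc8 -0.10 to 0.45 with a library left out. In Mfn2wt against nontransgenic, Dnahc8 read -0.09 to 0.11 at P1 (0.03 without P1_ntg replicate 1 or 3) and -0.30 to 0.13 at P21 with a library left out, and H2-Q10 at P21 -0.04 and -0.06 with limma. At 5 weeks Dnahc8 read -1.44 to 0.51 and H2-Q10 -1.88 to 0.04 with a library left out, the highest without 5wk_ntg_10287-6, and 0.52 and 0.02 without the pair. Dnahc8 from P1 to P21 in nontransgenic hearts read -0.40 to 0.68 with a library left out. The change from P1 to P21 read -0.57 to 0.40 for H2-Q2 and -0.18 to 0.90 for H2-Q10 with a library left out, 0.07 and -0.05 among them.

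Across genotype groups, deviations of libraries with the same title number correlated by 0.036, 0.035 and -0.005 on average at P1, P21 and 5 weeks (8, 24 and 10 pairs). These correlations do not test an effect of a number that a whole group shares, such as that of Mfn2AA at P21. With the title number as a block, Mfn2AA against tet-off read -0.12 for Glo1 and -0.27 for H2-Q10 at P1, 1.45 for H2-Q10 at P21 and 0.25 at 5 weeks, where 1 member was called. In Mfn2wt against nontransgenic 0 members were called with it at P1 and P21. The block could not be fitted for Mfn2AA against Mfn2wt or tet-off against nontransgenic, which share no number. Depth limits H2-Q2 and H2-Q10 at P1 (0 to 23 reads) and Dnahc8 (1 to 152 reads).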
